A study of Mus musculus with 10 samples.

Results

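The cytosolic ribosomal protein (RP) genes encode the proteins of the large and small subunits of the cytoplasmic ribosome. Their members here were the protein-coding genes whose symbol is Rpl or Rps followed by a digit, together with Rplp0, Rplp1, Rplp2 and Rpsa, leaving out the S6 kinase genes. Of 89 such genes, 68 had a start or end inside a captured promoter fragment (a bait) with a listed contact, and they lay on 81 of the 13024 baits of the series. The large subunit had 37 of its 46 genes on a bait, the small subunit had 27 of 31, and 4 of 12 paralogs and other matching genes had one (Rpl36al, Rpl22l1, Rpl3l and Rps19bp1). The 21 genes without such a bait included Rpl12, Rpl15, Rps3, Rps28 and Rps4x. No contact of theirs was listed, and whether their promoters were captured is not known here. In 13 genes both ends or neighbouring fragments gave a second bait, and 37 of the 81 baits also held another protein-coding gene, whose contacts cannot be told apart from those of the RP gene.

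Contacts were measured by promoter-capture Hi-C, which ligates crosslinked chromatin fragments that lay close together and enriches the ligated fragments that contain a promoter. The 10 libraries came from C57BL/6 mice and form 5 groups of 2 biological replicates. The bone marrow lineage-negative cells (haematopoietic stem and progenitor cells, HSPCs) were wild-type (WT), Npm1flox-cA/+;Mx1-Cre+ (Npm1c) or Flt3ITD/+ (Flt3-ITD), or carried all of these alleles (DM, the double mutant), and the neutrophils were WT. Npm1c recombines under Mx1-Cre, an interferon-inducible Cre that is not restricted to blood cells, no Cre is named for the WT and Flt3-ITD groups, and no age or number of mice per library is stated in the labels. Lineage depletion leaves a mixture of progenitors, so a difference in contacts and a difference in the mixture of cells cannot be told apart.

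RP genes are transcribed in nearly every growing cell, and their messenger RNAs usually begin with a run of pyrimidines, the terminal oligopyrimidine (TOP) tract, through which their translation is tied to growth signals. Many of their promoters carry sites for ETS family factors and Sp1. In blood, loss of 1 copy of an RP gene is the usual cause of Diamond-Blackfan anaemia, and Rps14 lies in the interval lost in the 5q- syndrome. NPM1 is a nucleolar chaperone that takes part in ribosome assembly and moves to the cytoplasm in its Npm1c form, while Flt3-ITD is a receptor that signals without its ligand.

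Start sequences are shown for 6 RP genes on whose contacts the results turn: Rpl31 and Rps25 had the baits that passed a test, Rps6 and Rps15a had some of the highest single scores, Rpl7a had the largest difference between DM and WT, and Rpl37 had a contact that passed in Flt3-ITD. That contact came from the second Rpl37 bait, which does not hold the start shown here. Each line gives the 20 bases before and 20 from the annotated start, 5′ to 3′ on the gene's strand, from RefSeq GRCm38.p6 (the mm10 assembly). Capitals mark a TOP-like tract, counted here as C followed by at least 4 C or T that begins within 10 bases of the annotated start.
Rpl31, large subunit, chr1:39367831-39367870, plus strand: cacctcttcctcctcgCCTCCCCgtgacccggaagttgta
Rpl7a, large subunit, chr2:26910787-26910826, plus strand: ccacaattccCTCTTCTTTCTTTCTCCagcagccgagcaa
Rps6, small subunit, chr4:86857348-86857387, minus strand: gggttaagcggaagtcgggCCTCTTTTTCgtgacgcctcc
Rps15a, small subunit, chr7:118116128-118116167, minus strand: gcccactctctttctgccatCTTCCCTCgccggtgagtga
Rps25, small subunit, chr9:44407694-44407733, plus strand: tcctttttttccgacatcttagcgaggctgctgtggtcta
Rpl37, large subunit, chr15:5116593-5116632, plus strand: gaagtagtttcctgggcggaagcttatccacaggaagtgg
The first 4 hold such a tract, and Rps25 and Rpl37 hold none that begins within 10 bases of the annotated start. Runs of C and T that begin further upstream, as in the Rps25 window, were not counted. The promoters of Rpl31 and Rps25 are given at length because these are the RP baits called below, with the searched motifs and the tract in capitals.
Rpl31 promoter, chr1:39367601-39367870, plus strand: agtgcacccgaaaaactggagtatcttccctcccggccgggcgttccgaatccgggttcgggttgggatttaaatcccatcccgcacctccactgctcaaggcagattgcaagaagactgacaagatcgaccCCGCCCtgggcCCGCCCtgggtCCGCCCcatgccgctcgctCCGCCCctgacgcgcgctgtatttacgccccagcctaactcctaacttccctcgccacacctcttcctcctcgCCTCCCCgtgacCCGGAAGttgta
Rps25 promoter, chr9:44407464-44407733, plus strand: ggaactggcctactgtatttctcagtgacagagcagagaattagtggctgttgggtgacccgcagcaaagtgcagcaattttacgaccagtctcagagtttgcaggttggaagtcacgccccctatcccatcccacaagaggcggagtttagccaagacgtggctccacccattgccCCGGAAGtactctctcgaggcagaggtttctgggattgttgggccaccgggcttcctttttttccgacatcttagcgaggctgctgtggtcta
The Rpl31 promoter holds 4 Sp1 boxes (GGGCGG, here read on the other strand), the tract and an ETS box (CCGGAAG) just after the start, whereas that of Rps25 holds an ETS box and no Sp1 box.

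Over the 58 promoter entries of the 50 RP genes with a bait that have one (300 bases each, both strands searched), the ETS box CCGGAAG occurred in 39.7%, against 11.6% of all 21263 protein-coding promoters. The Sp1 box GGGCGG occurred in 56.9% against 46.2%, and the YY1 box AAGATGGC in 6.90% against 3.05%. The E-box CACGTG bound by Myc occurred in 8.62% against 7.84%, and the TATA box TATAAA in 8.62% against 12.6%. A TOP-like tract at the start, read on the gene's strand, occurred in 55.2% against 30.1%. No searched box contains another, and a match is a match of letters only. The annotated start lay inside a bait for 48 of these 50 genes and on another fragment for Rpl35 and Rps2, and 18 genes with a bait had no promoter entry.

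Each listed pair joins a bait to another HindIII fragment and carries 1 interaction score per library, which is never negative and whose scale is not stated. All 8 libraries of HSPCs share a single list of pairs, and a pair is included if any HSPC group has 5 or more in each of its replicates. The neutrophil libraries have a list of their own. RP baits accounted for 703 of the HSPC pairs, on 79 baits, and 201 of the neutrophil pairs, on 49 baits. The files hold no read counts, so the depth of the libraries is unknown and the spread between 2 replicates is the only measure of error.

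RP baits had a mean of 8.90 listed HSPC pairs, against 7.43 over the 9405 gene-bearing baits with a pair, a ratio of 1.20, with medians of 5 and 4. The distribution was uneven: 27 RP baits (34.2%, against 45.8% of gene-bearing baits) had 1 to 3 pairs, and 8 (10.1%, against 8.31%) had 20 or more. The ratio of means moved with the baits counted: it was 1.13 without the Rps20 bait, and 1.21 when RP and gene-bearing baits of 20 or more pairs were left out alike. Over the 47 RP baits known to hold the annotated start of the RP gene, the mean was 6.70 pairs, below the 7.43 of gene-bearing baits. These 47 leave out the baits of 18 genes without a promoter entry, among them Rps20 and Rpl29, which had many pairs. Gene-bearing baits were not limited to those holding a start. Whether the higher mean holds for baits that carry the RP promoter therefore cannot be said. Of the 81 RP baits, 33 are not known to hold a start. The median distance between the RP bait and its partner was 192 kb, against 215 kb, and 33 RP pairs (4.69%, against 5.16%) spanned over 1 Mb. No RP pair joined different chromosomes (0 of 703, exact 95% binomial interval 0 to 0.523%), against 253 pairs (0.362%) of gene-bearing baits. In 22.0% of RP pairs the partner fragment held a gene end, against 20.2%, and in 26.7% it was itself a bait, against 24.2%. Pairs share baits and libraries, so the binomial interval, which treats them as independent, is too narrow. These shares are descriptions and were not tested.

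RP contacts often lay in blocks of adjacent fragments. The 703 pairs formed 423 runs of adjacent fragments, 22 of them at least 5 fragments long, and 56.8% of RP pairs were in a run of at least 2, against 51.5% for gene-bearing baits. Rps20, of the small subunit, contacted 2 neighbouring runs of 10 fragments each over Tgs1, which encodes the enzyme that hypermethylates the cap of small nuclear RNAs, and Tmem68. Rpl29 contacted 9 adjacent fragments in Poc1a, a centriole gene, and 8 at Ppm1m and Twf2. Rps14 contacted 8 in the neuronal kinase gene Camk2a, Rpl31 contacted 7 at Pdcl3, and Rpl13 contacted 7 in Ankrd11. A long-range run joined Rpl37 to 5 fragments at Fbxo4, 1132 kb away.

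Pairs scoring 5 or more in both replicates of a group differed in number between the HSPC groups. WT had 248 such RP pairs (35.3%, against 34.6% of pairs of gene-bearing baits), Npm1c had 255 (36.3% against 41.4%), Flt3-ITD had 375 (53.3% against 51.0%) and DM had 376 (53.5% against 48.9%). The order of the groups was thus the same for RP and gene-bearing pairs in having WT lowest and both Flt3-ITD and DM above Npm1c. By replicate, the share of RP pairs at 5 or more was 53.5% and 48.2% in WT, 44.7% and 62.6% in Npm1c, 66.0% and 64.6% in Flt3-ITD, and 64.3% and 67.0% in DM. The Npm1c replicates lay on either side of both WT replicates, and every Flt3-ITD and DM library lay above every WT and Npm1c library. Pairs of gene-bearing baits showed nearly the same pattern, with 53.3% and 46.7% in WT, 51.4% and 61.4% in Npm1c, 63.9% and 64.0% in Flt3-ITD, and 60.8% and 62.0% in DM.

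Of the RP pairs, 82 (11.7%) reached 5 in all 4 HSPC groups, against 9.96% for gene-bearing baits. The exact 95% binomial interval, 9.39 to 14.3%, treats pairs that share baits and libraries as independent, so it is too narrow. Baits with many pairs decided the direction of the difference from gene-bearing baits, since over baits with fewer than 20 pairs the share was 5.68% against 7.55%. Over RP baits known to hold the gene start, the share was 6.35%, also below that of gene-bearing baits. Those RP baits leave out genes without a promoter entry, and the gene-bearing baits were not limited alike. A further 401 pairs (57.0%, against 56.5%) reached 5 in 1 group only: DM had 148 of these, Flt3-ITD 115, Npm1c 71 and WT 67. More pairs than in WT were found at 37 of 79 RP baits in Npm1c (46.8%, against 40.8% of gene-bearing baits), 44 in Flt3-ITD (55.7% against 49.8%) and 46 in DM (58.2% against 50.4%). Fewer were found at 22 (27.8%, against 27.1%), 14 (17.7% against 22.2%) and 19 baits (24.1% against 27.2%).

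The 10 baits with the most HSPC pairs held 294 of the 703. Rps20 was one of them, and Rpl29, Rps14, Rpl28, Rpl36al, Rpl30 and Rpl23a were others.

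**Figure D1:**
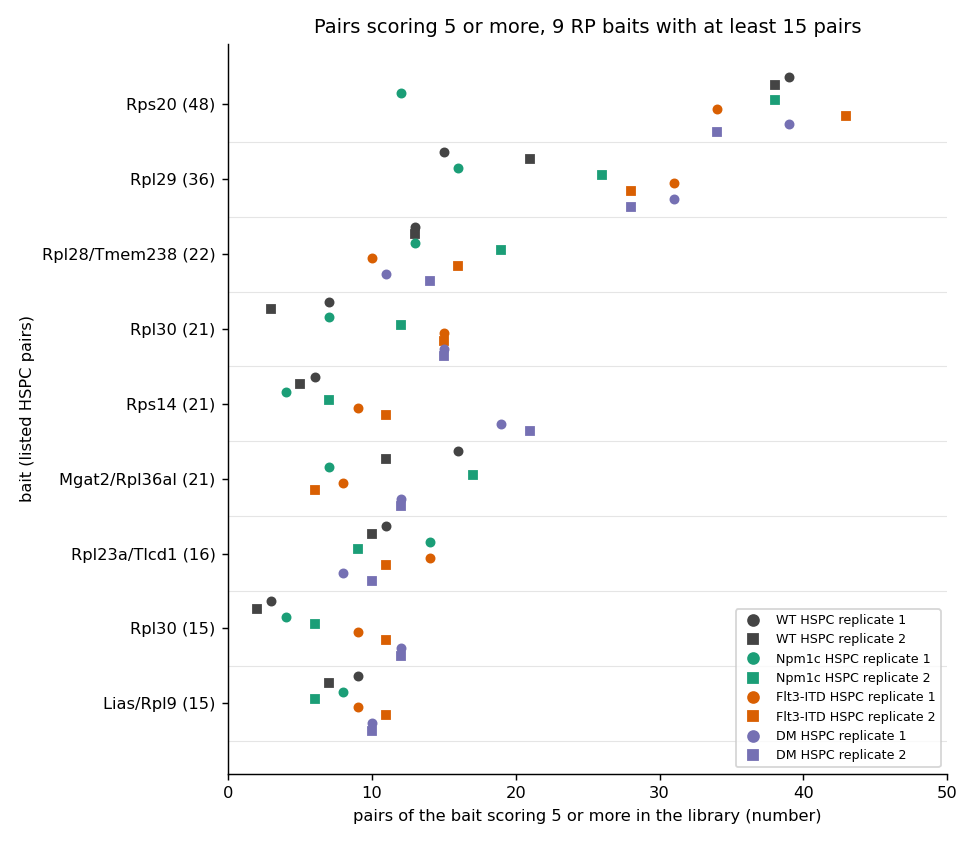
Number of pairs scoring 5 or more in each HSPC library (x axis) at 9 RP baits with at least 15 listed HSPC pairs (y axis, listed pairs in brackets). Circles are replicate 1 and squares replicate 2 of each group. At Rps20, 1 Npm1c library has 12 pairs and the other libraries have 34 to 43, while at Rps14 both DM libraries (19 and 21) lie above all others.

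Rps20 had 48 pairs, 36 of them on the lower-coordinate side of the bait (chr4:3832484-3836181) and 12 on the other. Its partners overlapped Tgs1 in 9 pairs, the transcription factor gene Plag1 in 8, Tmem68 in 6 and Lyn, a Src family kinase of blood cells, in 4. The median score over its pairs was 7.06 and 7.46 in WT, 2.51 and 7.44 in Npm1c, 5.96 and 9.33 in Flt3-ITD, and 7.23 and 6.36 in DM. The first Npm1c library stood apart, with 12 pairs at 5 or more against 38 in the second, so that the count of 12 pairs for the Npm1c group was set by that library.

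**Figure D2:**
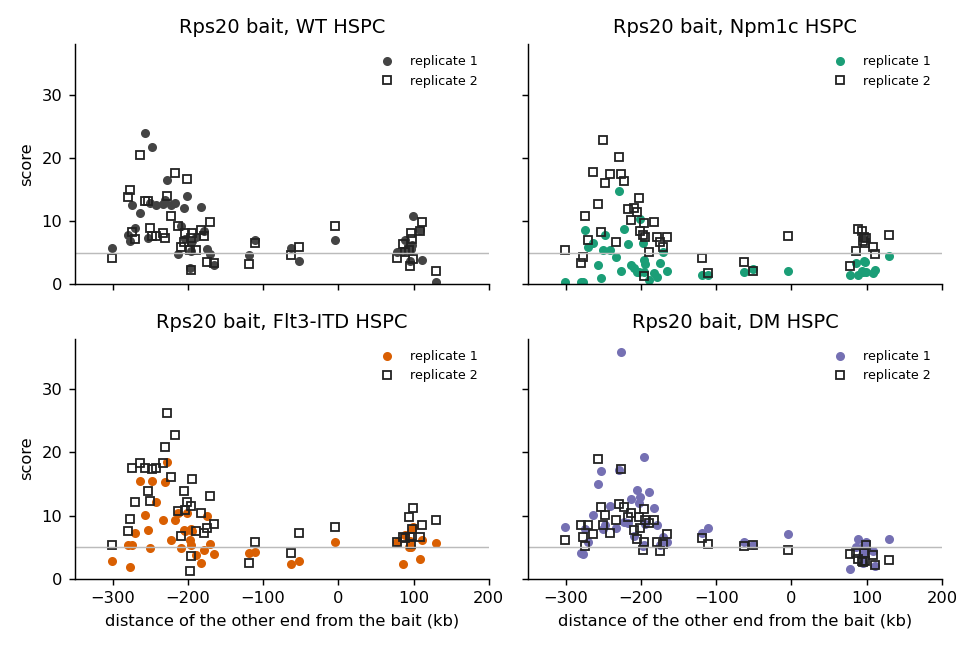
Score of each Rps20 pair (y axis) against the distance of the partner fragment from the bait in kb (x axis, negative towards lower coordinates) in the 4 HSPC groups. Filled circles are replicate 1, open squares replicate 2, the line marks a score of 5, and 1 pair at 957 kb lies outside the plotted range. Most pairs lie between 170 and 280 kb on the negative side, and in 27 of the 29 pairs there the Npm1c circle lies below its square.

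Rpl29, of the large subunit, had 36 pairs, all within 278 kb, with median scores of 4.45 and 5.15 in WT, 4.79 and 7.07 in Npm1c, 7.06 and 6.56 in Flt3-ITD, and 7.59 and 6.98 in DM. Its WT libraries had 15 and 21 pairs at 5 or more and its Flt3-ITD and DM libraries 28 to 31, with no overlap. Rps14 had 21 pairs, 12 overlapping Camk2a and 5 overlapping Pdgfrb, with medians of 3.21 and 2.94 in WT, 2.59 and 3.78 in Npm1c, 4.39 and 5.01 in Flt3-ITD, and 6.20 and 8.33 in DM. In DM 19 of these 21 pairs reached 5 in both replicates, against 2 in WT. The counts and medians of Rpl29 and Rps14 include pairs that entered the list through Flt3-ITD or DM themselves, so these differences follow in part from the listing.

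The other baits described here held 15 to 22 pairs each. Rpl28, shared with Tmem238, had 22, and 6 of them overlapped Ptprh. Rpl36al, shared with Mgat2, had 21, overlapping Nemf in 8 and Sos2 in 6. Rpl30 had 21 pairs on its first bait and 15 on its second, with 10 partner fragments in common, and Mtdh was overlapped by 14 and 8 of them. Rpl23a, shared with Tlcd1, had 16, overlapping Phf12 in 11. Rpl9, shared with Lias, also had 15 and so tied with the last of the 10, and it overlapped Pds5a, a cohesin regulator, in 9. At Rpl30 the WT median scores were 4.37 and 3.05 on the first bait and the DM medians were 6.19 and 6.70. Those medians too include pairs listed through DM.

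Among the 10 RP pairs with the highest mean over the 8 HSPC libraries were contacts of Rps20, Rps15a and Rps6, all of the small subunit. Rps20 had 3 of them, all overlapping Tgs1. That at 227 kb scored 16.5 and 13.9 in WT, 2.10 and 17.4 in Npm1c, 18.5 and 26.2 in Flt3-ITD, 35.9 and 17.4 in DM, and 6.80 and 12.8 in neutrophils. The replicates of Npm1c and DM differed widely there. That at 230 kb scored from 7.30 to 20.9 in the HSPC libraries, and that at 257 kb from 3.09 to 24.0.

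Rps15a contacted Smg1, a kinase gene of nonsense-mediated decay, 130 kb away, with scores of 20.0 and 15.4 in WT, 25.7 and 16.8 in Npm1c, 18.2 and 12.8 in Flt3-ITD, 11.9 and 7.82 in DM, and 7.32 and 8.27 in neutrophils. Both DM libraries were below every other HSPC library. Rps6, the S6 kinase substrate whose start is shown above, contacted Haus6, a gene of the augmin complex of the spindle, 247 kb away. It scored 16.5 and 24.0 in WT, 13.1 and 13.2 in Npm1c, 22.1 and 18.2 in Flt3-ITD, 12.7 and 8.38 in DM, and 16.2 and 12.7 in neutrophils. WT and Flt3-ITD overlapped, and both lay above Npm1c and DM.

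Only 5 listed HSPC pairs joined a pair of RP fragments, all on the same chromosome. Rps29 contacted the Rpl36al fragment 27.4 kb away in every library, with scores of 9.40 and 8.28 in WT, 7.03 and 7.74 in Npm1c, 9.30 and 11.8 in Flt3-ITD, 7.79 and 9.16 in DM, and 9.35 and 6.40 in neutrophils. Flt3-ITD replicate 2 was the highest and neutrophil replicate 2 the lowest, and all 10 libraries were above 5. Baits of other genes contacted RP fragments in a further 180 pairs, which ended on 49 of these fragments.

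For the comparisons between groups, each bait's value was the mean of log2(score + 1) over its pairs, and only pairs listed through a group outside the comparison were used, for baits with at least 3 of them. Differences are on this log2 scale, tested with limma over all such baits with Benjamini-Hochberg adjustment, and a bait was called at an adjusted p of 0.05 or less. The comparisons against WT share the WT libraries, and all 8 HSPC libraries share 1 estimate of the spread.

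In Npm1c against WT, no RP bait of 56 passed the test, and of all 6318 baits tested 0% were called. At an unadjusted p of 0.05 or less there were 2 RP baits (3.57%, against 11.0% of all baits). The median difference of RP baits was 0.03, against 0.13 over all baits. The median value over RP baits was 2.61 and 2.39 in WT and 2.38 and 2.60 in Npm1c, so the groups overlapped. The highest differences were those of Rps25 (0.82, SE 0.24, limma adjusted p 0.292), Rpl22l1 (0.78, SE 0.37, adjusted p 0.479) and Rpl37 (0.49, SE 0.28, adjusted p 0.554). At Rps25 the WT values were 1.72 and 1.60 and the Npm1c values 2.76 and 2.21, without overlap. The lowest were those of Rps29 (-0.54, SE 0.24, adjusted p 0.440), Rps20 (-0.51, SE 0.32, adjusted p 0.590) and Rpl13a (-0.37, SE 0.21, adjusted p 0.550). At Rps20 the values were 3.11 and 3.02 in WT and 1.97 and 3.15 in Npm1c, and without the first Npm1c library the difference was 0.081, which turned its direction.

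In Flt3-ITD against WT, none of 53 RP baits passed, and 0.613% of all baits were called. At an unadjusted p of 0.05 or less there were 13 RP baits (24.5%), close to the 22.9% of all baits. The RP median difference was 0.24, as was that of all baits (0.24), and 39 of the 53 (73.6%) were above 0, against 80.4% of all baits. The median value over RP baits was 2.53 and 2.40 in WT and 2.71 and 2.68 in Flt3-ITD, without overlap, beside 2.50 and 2.37 against 2.67 and 2.66 over all baits. The highest differences were those of Rpl22l1 (1.00, SE 0.39, limma adjusted p 0.161), Rplp2 (0.78, SE 0.24, adjusted p 0.110) and Rplp1 (0.77, SE 0.24, adjusted p 0.110). Rplp1 and Rplp2 encode the acidic stalk proteins of the large subunit, which recruit elongation factors. Rplp2, on a bait shared with Pidd1 and Pnpla2, had values of 1.92 and 2.40 in WT and 2.92 and 2.97 in Flt3-ITD, and Rplp1 had 1.45 and 1.64 against 2.16 and 2.48, both without overlap. The lowest were Rpl6 (-0.46, SE 0.33), Rps9 (-0.45, SE 0.31) and Rps12 (-0.43, SE 0.24), with adjusted p from 0.308 to 0.433. Rps9 had 2.53 and 1.44 in WT and 1.52 and 1.57 in Flt3-ITD, and without the first WT library its difference was 0.10.

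In DM against WT, 1 of 47 RP baits passed, that of Rpl31, and 2.61% of all baits were called, so the share among RP baits was close to the background. At an unadjusted p of 0.05 or less there were 11 (23.4%), also close to the share of all baits (22.1%). The median RP bait differed by 0.07, against 0.10 over all baits. The Rpl31 bait (chr1:39364646-39370266), a large-subunit gene whose human counterpart is mutated in some cases of Diamond-Blackfan anaemia, had values of 2.55 and 2.41 in WT, 2.64 and 2.86 in Npm1c, 3.17 and 3.04 in Flt3-ITD, and 3.40 and 3.18 in DM over its 7 tested pairs. Both DM libraries were above every other HSPC library. It rose in DM by 0.81 (SE 0.18, limma adjusted p 0.0484), which is 1.75-fold on the scale of score + 1. Over 11 other settings the difference ran from 0.65 to 0.92. The call held in only 2 of them: without WT replicate 1, and with all listed pairs, where pairs enter through the groups compared. It was lost without WT replicate 2 (adjusted p 0.195), DM replicate 1 (0.189) or DM replicate 2 (0.152), and when only the WT and DM libraries were fitted (0.0992).

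Of the 10 listed Rpl31 pairs, 9 ended between 357 and 382 kb away at Pdcl3, a gene for a phosducin-like chaperone, and 1 lay 159 kb away near Cnot11. Over the 10 pairs the median score was 5.57 and 4.64 in WT, 5.73 and 4.98 in Npm1c, 6.77 and 6.31 in Flt3-ITD, and 10.1 and 7.97 in DM. Unlike the 7 tested pairs, these 10 include pairs listed only through DM or WT, so these medians follow in part from the listing. The pair at 365 kb scored 6.86 and 4.01 in WT, 7.63 and 7.57 in Npm1c, 8.38 and 9.83 in Flt3-ITD, and at least 11.8 in both DM libraries. The pair at 366 kb scored 3.28 and 3.46, 5.82 and 4.65, 6.66 and 5.68, and 10.4 and 9.92 in the same order. At both pairs the DM libraries were the highest of the 8.

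**Figure D3:**
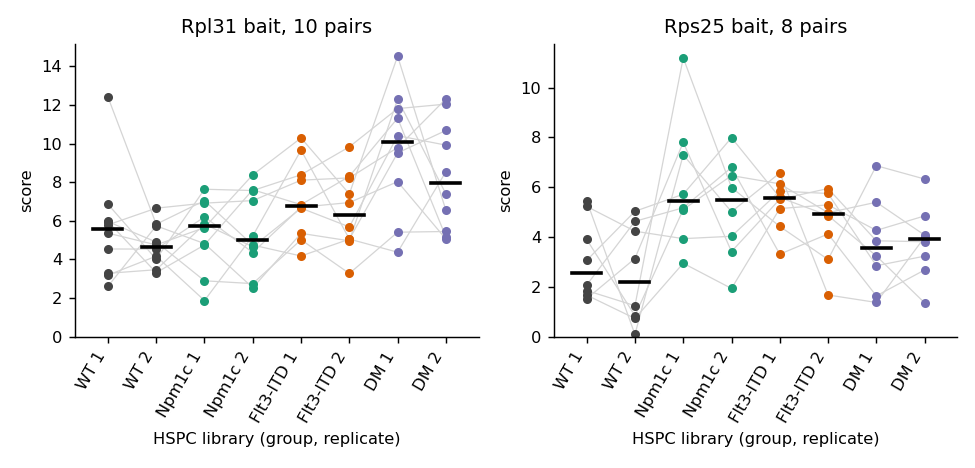
Score of every listed pair (y axis) of the Rpl31 bait (left, 10 pairs) and the Rps25 bait (right, 8 pairs) in the 8 HSPC libraries (x axis). Points are pairs, grey lines join a pair across libraries, and black bars are medians. The Rpl31 medians are highest in DM (10.1 and 7.97), and the Rps25 medians are lowest in WT (2.56 and 2.19). Both panels show all listed pairs, including those listed only through a group in which they score high.

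The highest differences in DM against WT besides Rpl31 were those of Rpl7a on the bait shared with Med22 (1.19, SE 0.34, limma adjusted p 0.0832) and Rpl34 (0.90, SE 0.40, adjusted p 0.223). Rpl7a had 2.49 and 1.42 in WT and 3.05 and 3.22 in DM, without overlap, and passed without WT replicate 1 (adjusted p 0.0228). Rpl34 had 0.87 and 2.08 in WT and 2.64 and 2.12 in DM. The lowest were Rpl7 on the bait shared with Rdh10 (-0.83, SE 0.32, adjusted p 0.169), Rpl6 (-0.67, SE 0.29, adjusted p 0.213) and Rps15a (-0.45, SE 0.21, adjusted p 0.241). Rpl6 had 3.14 and 3.07 in WT and 2.31 and 2.55 in DM, and Rps15a had 3.12 and 2.75 against 2.40 and 2.56, so for both the DM libraries lay below the WT libraries. These did not pass the test.

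**Figure D4:**
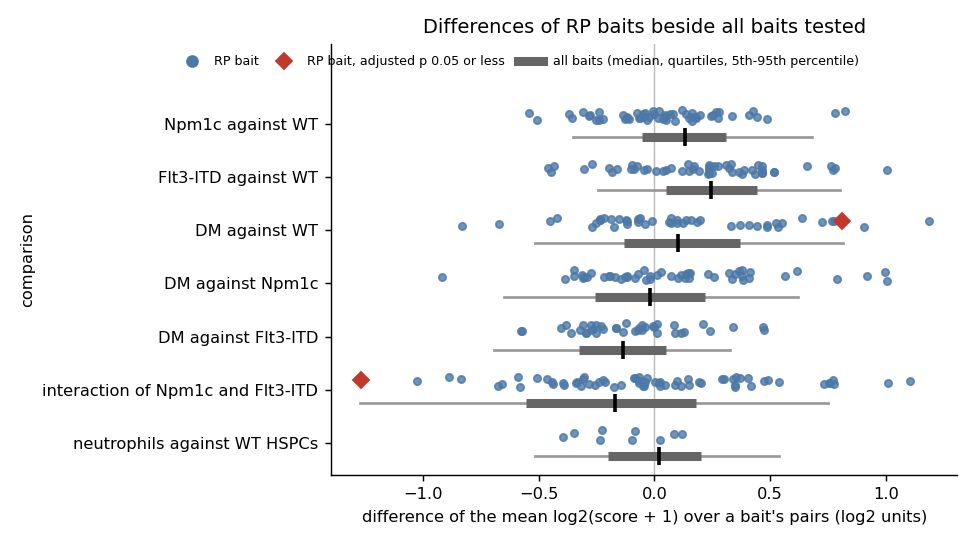
Difference of the mean log2(score + 1) over a bait's pairs (x axis, log2 units) in the 7 comparisons (y axis). Points are RP baits, red diamonds are those with an adjusted p of 0.05 or less, and bars give the median, the quartiles and the 5th to 95th percentiles of all baits tested. The RP points lie around the median of all baits, with Rpl31 in DM against WT and Rps25 in the interaction marked.

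Adding Flt3-ITD to Npm1c (DM against Npm1c) gave no call among 50 RP baits, with 8 at an unadjusted p of 0.05 or less (against 18.4% of all baits) and 0.21% of all baits called. The median RP bait differed by 0.05, against -0.02 over all baits. The highest were both Rpl7a baits (1.00, SE 0.34, limma adjusted p 0.166, and 1.00, SE 0.32, adjusted p 0.148) and Rps14 (0.92, SE 0.22, adjusted p 0.0971). Rps14 had 2.16 and 2.54 in Npm1c and 2.96 and 3.58 in DM over the 9 pairs brought in by WT or Flt3-ITD, without overlap. The lowest were Rpl6 (-0.92, SE 0.29, adjusted p 0.143), Rps15a (-0.39, SE 0.19, adjusted p 0.298) and Rpl8 (-0.35, SE 0.22, adjusted p 0.449). Rpl6 had 3.20 and 3.50 in Npm1c and 2.31 and 2.55 in DM.

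Adding Npm1c to Flt3-ITD (DM against Flt3-ITD) gave no call among 39 RP baits, with 3 at an unadjusted p of 0.05 or less (7.69%, against 15.3% of all baits) and 0.19% of all baits called. The median RP bait was lower by 0.12 and the median of all baits by 0.14, and 11 of the 39 (28.2%, against 30.8%) were above 0. The highest were Rpl31 (0.47, SE 0.21, limma adjusted p 0.324), the second Rpl37 bait (0.47, SE 0.29, adjusted p 0.482) and Rps14 (0.34, SE 0.26, adjusted p 0.579). The lowest were Rpl7 (-0.58, SE 0.21, adjusted p 0.216), Rps27a (-0.57, SE 0.21, adjusted p 0.226), which encodes a fusion of ubiquitin to a small-subunit protein, and Rps6 (-0.40, SE 0.31, adjusted p 0.579). Rps27a had 3.12 and 2.76 in Flt3-ITD and 2.14 and 2.60 in DM, without overlap. Rps6 had 3.05 and 3.24 against 3.29 and 2.19, and without DM replicate 2 its difference was 0.15.

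The interaction asks whether DM departs from the sum of both single mutants on the log2 scale, and it used all listed pairs, because no HSPC group lies outside it. Of 66 RP baits 1 passed, that of Rps25 on the bait shared with Trappc4, beside 5.11% of all baits called, and 10 had an unadjusted p of 0.05 or less (15.2%, against 24.1% of all baits). The Rps25 bait (chr9:44406828-44408782) had values of 1.94 and 1.56 in WT, 2.76 and 2.56 in Npm1c, 2.64 and 2.39 in Flt3-ITD, and 2.12 and 2.19 in DM over its 8 pairs. The values of the single mutants were above those of DM, and those of DM above WT, but every pair was listed through a group in which it was high, so this order and the interaction cannot be told apart from the listing. The interaction was -1.27 (SE 0.28, limma adjusted p 0.0325). It kept an adjusted p of 0.05 or less in 6 of 13 other settings, with estimates of -1.73 to -0.94 and adjusted p of 0.0337 to 0.126. The call was lost without WT replicate 2 (0.0766), Flt3-ITD replicate 1 (0.126) or 2 (0.0973), or DM replicate 1 (0.0932) or 2 (0.102).

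Rps25 encodes a small-subunit protein used in translation from internal ribosome entry sites. Its 8 pairs ended 85.0 to 244 kb away, 4 of them in or near the RNA helicase gene Ddx6 and others at Hinfp, Cbl, C2cd2l and Ccdc153, and the number at 5 or more was 5 for Npm1c, 3 for Flt3-ITD, 1 for DM and 0 for WT. This count follows in part from the listing too. Over pairs listed through other groups, neither single mutant passed against WT (limma adjusted p 0.292 in Npm1c and 0.150 in Flt3-ITD), nor did DM (0.41, SE 0.19, adjusted p 0.245).

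The other extremes of the interaction did not pass. The highest were Rps9 (1.10, SE 0.44, limma adjusted p 0.163), the second Rpl7a bait (1.01, SE 0.34, adjusted p 0.110) and Rps12 (0.78, SE 0.33, adjusted p 0.179). The lowest after Rps25 were Rps7 (-1.03, SE 0.32, adjusted p 0.0880) and Rpl22l1 (-0.89, SE 0.45, adjusted p 0.256). Rps7, which binds MDM2, had 2.66 and 2.39 in WT, 3.03 and 2.95 in Npm1c, 2.76 and 2.96 in Flt3-ITD, and 2.63 and 1.96 in DM. Over RP baits the median interaction was -0.04, against -0.17 over all baits.

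Single RP pairs were tested over all listed pairs, in which a pair enters because a group scored high. Of 703 RP pairs, 4 passed in Npm1c against WT (0.31% of all pairs called), 4 in Flt3-ITD against WT (0.568%), 4 in DM against WT (0.576%), 2 in DM against Npm1c (0.561%), 2 in DM against Flt3-ITD (0.458%) and 4 in the interaction (0.564%). Outside the interaction, every one of these was listed only through a group that was being compared, and leaving out any 1 of the libraries compared left 0 RP pairs called in all 6 HSPC comparisons. With 1 library left in a group, that library is assumed to vary as the other groups do.

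The called RP pairs included contacts of over 1 Mb. The Rpl7 bait with a fragment at chr1:88274375-88276240, 72.2 Mb away, scored 19.4 and 6.21 in WT and 0 in all 6 mutant libraries (-3.60, SE 0.47, limma adjusted p 0.0208 to 0.0274 in the 3 mutants). This contact was listed in WT only. The second Rpl37 bait contacted chr15:6385851-6387963, 1.27 Mb away, with 6.75 and 5.63 in Flt3-ITD, 0.259 and 0.539 in Npm1c and 0 in WT and DM (2.84, SE 0.30, limma adjusted p 0.00920 against WT). A fragment near Timm9 at chr12:71136101-71139920 had 2 listed pairs from non-RP baits, that of Klhl28 and Togaram1 and a bait without a gene. Those averaged 9.23 in DM and 2.57 to 3.23 in the other HSPC groups. They too were listed because some HSPC group scored high, so their high DM mean cannot be told apart from the listing. Rpl36al contacted this fragment, 1.95 Mb away, with 5.99 and 6.45 in DM and at most 1.02 elsewhere (2.85, SE 0.44, limma adjusted p 0.0405 against Npm1c). Rps27a had a shorter one, at 308 kb: it contacted chr11:29235443-29239760 with 6.43 and 5.95 in WT, 1.87 and 2.24 in Npm1c, 2.98 and 3.46 in Flt3-ITD, and 0.163 and 0.303 in DM (-2.55, SE 0.29, adjusted p 0.0158 for DM against WT).

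Among the 22 RP genes linked to Diamond-Blackfan anaemia or the 5q- syndrome, 18 had a bait, and these 19 baits had a mean of 9.29 HSPC pairs. Rps20 had the most with 48, then Rps14 with 21, Rpl9 with 15 and Rpl31 with 10. Rps27 and Rps7 had 9 each, Rpl26 had 8, Rps15a 6, Rps19, Rpl35 and Rps29 had 5 each, and Rpl11 had 4. Rps10, Rps24 and Rps26 had 3 each, and Rpl5 and Rpl18 had 2 each. Rpl27, Rpl15, Rpl35a and Rps28 had no bait with a listed contact. Of these genes, Rpl31 in DM was the only one called, out of 9 to 15 baits tested in each HSPC comparison. Their median difference was 0.02 for Npm1c, 0.25 for Flt3-ITD and -0.07 for DM against WT, beside 0.13, 0.24 and 0.10 over all baits. Rps19, the gene most often mutated in the anaemia, differed by 0.53 in DM (SE 0.22, limma adjusted p 0.201), and Rps14 by 0.78 (SE 0.22, adjusted p 0.0864).

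The wider machinery of ribosome production and translation was read from 3 further gene lists. Ribosome assembly and rRNA synthesis factors had 60 of 79 genes on a bait, with a mean of 8.77 HSPC pairs, and of their baits only that of Nop9, shared with Dhrs1, was called (interaction 1.05, SE 0.24, limma adjusted p 0.0374). Translation factors had 38 of 54, with a mean of 9.61 pairs, and only Eif3a, shared with Nanos1, was called (interaction -1.24, SE 0.30, adjusted p 0.0448). Mitochondrial ribosomal proteins had 55 of 78, with a mean of 7.35 pairs. In that family Mrpl51 rose in Flt3-ITD (1.13, SE 0.20, adjusted p 0.0433), Mrpl12, shared with Slc25a10, rose in DM (1.23, SE 0.24, adjusted p 0.0406) and Mrpl32, shared with Psma2, fell in DM (-1.10, SE 0.25, adjusted p 0.0489). Its interaction calls were 3 of 42 baits, Mrpl40 (shared with Hira, -1.27), Mrpl1 (-0.91) and Mrpl51 (-0.99). These few calls stand beside 0.613% of all baits called in Flt3-ITD, 2.61% in DM and 5.11% in the interaction, so they are no result about the lists. In each of these lists, the 6 HSPC comparisons tested 23 to 56 baits.

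WT neutrophils listed 201 RP pairs, and 144 of them were also in the HSPC list (71.6%, against 55.9% for gene-bearing baits, and 57.4% against 45.9% over baits with fewer than 20 HSPC pairs). Of the 248 RP pairs at 5 or more in WT HSPCs, 38.3% were in the neutrophil list, against 25.6%, and over baits with fewer than 20 pairs 26.5% were, against 23.0%. Of the DM pairs 27.4% were, against 22.4%, but over baits with fewer than 20 pairs 18.4% were, against 20.1%, so there the baits with many pairs decided the direction. The median neutrophil distance was 149 kb, against 158 kb. All 12 neutrophil pairs of Rps20 were in the HSPC list.

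The remaining 57 neutrophil pairs of RP baits were absent from the HSPC list. Rps12, on a bait shared with Slc18b1, had 6 of them, including fragments near or in Taar9 at 335 kb (12.1 and 10.9) and 318 kb (7.24 and 9.28) and in the syntaxin gene Stx7 at 358 kb (9.54 and 7.98). Rps3a1 contacted Gpatch4, 1902 kb away, with 11.3 and 15.5. Rpl24 contacted Senp7 at 95.9 kb with 8.01 and 9.32, and Rpl34 contacted Papss1 at 835 kb with 9.98 and 6.57. The first Rpl18 bait had neutrophil pairs only.

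On pairs that reached 5 in every WT library of HSPCs and neutrophils, 9 RP baits could be compared, and none was called, beside 3.43% of all 874 baits, and 1 had an unadjusted p of 0.05 or less (11.1%, against 21.7%). Requiring 5 in every library compared limits how far the cell types can differ on these pairs. Whether the lists of both cell types were scaled together is not stated, so differences of level here are relative to these deposited values. The median RP bait was lower in neutrophils by 0.09 and the median of all baits higher by 0.02, but with baits of at least 1 pair the RP median was above that of all baits by 0.060. The median over these RP baits was 3.37 and 3.16 in WT HSPCs and 3.07 and 3.06 in neutrophils, without overlap, beside 3.27 and 3.16 against 3.27 and 3.22 over all baits. The lowest was Rps20, with 3.63 and 3.54 in WT HSPCs and 3.36 and 3.02 in neutrophils (-0.40, SE 0.16, limma adjusted p 0.153), and after quantile normalization it passed (-0.66, adjusted p 0.0162). Rpl29 (-0.24, SE 0.17, adjusted p 0.453) was also lower, while Rpl36al differed by 0.03 (SE 0.18, adjusted p 0.951). All 144 shared RP pairs were listed through neutrophils, and 49 of them did not reach 5 in both WT HSPC replicates. A test of single shared pairs therefore leaned towards higher scores in neutrophils. None of the 144 shared RP pairs was called singly (limma, 14 at an unadjusted p of 0.05 or less), beside 0.206% of all shared pairs, although 2 were called without WT HSPC replicate 1.

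**Figure D5:**
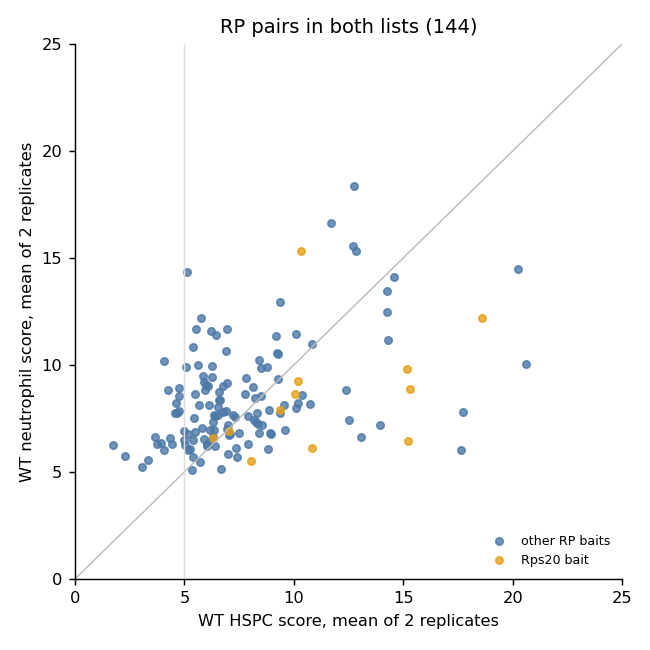
Mean score of the 144 RP pairs found in both lists in WT HSPCs (x axis) and WT neutrophils (y axis), 2 replicates each, with the line of equal scores and a line at 5 on the x axis. Points left of that line entered the HSPC list through a mutant group. The Rps20 bait (yellow) holds 12 of the points.

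Contacts of marker genes of other cell types also differed between the HSPC groups. Baits of 8 of 10 neutrophil markers had 62 pairs in the neutrophil list, and at 5 or more they had 23 for WT, 32 for Npm1c, 36 for Flt3-ITD and 53 for DM. Baits of 6 of 8 erythroid markers had 34, 33, 31 and 14, baits of 3 T and NK markers had 12, 21, 41 and 34, and baits of 3 B cell markers had 1, 2, 5 and 9. Stem and progenitor markers with a bait (Erg, Flt3, Gata2, Meis1 and Mycn) had 5, 18, 20 and 18, and macrophage markers had 4, 3, 6 and 6. Kit, Cd34 and Mecom had no bait with a listed contact. Over all gene-bearing baits the counts were 24184, 28968, 35693 and 34177 in the same order. A higher count than in WT was therefore not particular to these markers. The marker counts are of contacts and not expression, and their part in the RP results was not tested. The median score over all listed pairs ran from 4.76 in the lower WT library to 5.74 in the higher Flt3-ITD library, and both WT libraries were below the Flt3-ITD and DM libraries.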

How the data were processed

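Promoter-capture Hi-C pairs of 10 libraries (5 groups of 2) were analysed. The score is the authors' deposited interaction score per HindIII fragment pair, listed at 5 or more in both replicates of a group, and its caller, aligner and scale are not given in the sources used here. Per the file headers, the distance is another column, in bp. The build is mm10, per the submitters' processing notes. RP baits were found from gene ends in the GRCm38.p6 table. Log2(score + 1) was averaged over each bait's pairs (at least 3) and tested on all baits, and single pairs on all 88421 pairs on autosomes and X (14051 for neutrophils), with limma 3.58.1 in R 4.3.3 (lmFit, eBayes, two-sided, Benjamini-Hochberg). Scripts were tested on simulated data. Members and lists were chosen with earlier results of these data known. Named were baits and pairs called, the 10 baits with most pairs, the 3 highest and lowest differences per comparison, the 10 highest pairs, RP to RP pairs, and anaemia genes, of which a few genes are not reported here. Alternatives changed the minimum of pairs, pseudocount, scaling, prior, block, pairs used, members and libraries. Depth is unknown, so no counting interval applies to scores.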

Additional observations from a re-analysis of the deposited data

Results flagged for a closer look

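Whether DM departs from the sum of both single mutants was tested as an interaction (limma, log2(score + 1), 2 libraries per group), and 1 RP bait and 4 RP pairs passed. The Rps25 bait had an interaction of -1.27. Its Npm1c value exceeded WT (2.76 and 2.56 against 1.94 and 1.56), whereas adding Npm1c to Flt3-ITD gave lower values (2.12 and 2.19 against 2.64 and 2.39). The second Rpl37 bait with chr15:6385851-6387963 had an interaction of -3.32 (adjusted p 0.0334), since the contact was high in Flt3-ITD alone. Its call was lost with a replicate block (adjusted p 0.0725) and without any 1 of the 8 libraries (adjusted p 0.0747 to 0.130), and all listed pairs were used, so the listing was not removed from these estimates.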

How the results depend on the processing

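With 2 libraries per group and no counts, the spread rests on few values, and most calls of 1 bait depend on a single setting. In the 5 comparisons where no RP bait was called, 58 alternatives also called 0, which shows nothing about stability, and 6 called some. Where 1 was called, 8 alternatives also called 1, 3 called more and 17 called 0, and the medians moved by less than the replicate spread 63 times and by more 22 times.

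Replicate numbers did not pair the samples: deviations of same-numbered libraries correlated at -0.0032 to 0.051 between HSPC groups and at -0.011 between WT HSPCs and neutrophils. With the replicate block, the count in DM against WT was 0 baits and in the interaction 0 pairs.

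RP baits called in DM against WT were 0 with at least 1 pair, at least 10 pairs, quantile normalization, log2(score + 0.1), no trend, and only the libraries compared (added after seeing the data), and 13 (19.7%, against 17.1% of all baits) with all listed pairs, a setting in which pairs enter through the groups compared. All listed pairs also gave 2 in Flt3-ITD against WT (3.03% against 5.91%) and 7 in DM against Npm1c (10.6% against 13.8%). The interaction gave 0 with at least 10 pairs, log2(score + 0.1) or only canonical RP genes alone on their bait, and 3 with quantile normalization (4.55% against 6.03%). Neutrophils against WT HSPCs gave 2 with quantile normalization (22.2% against 16.7%) and 1 with all pairs in both lists (5.88% against 19.8%). The cause was not tested for the others.

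The RP median less the all-bait median was -0.18 in Npm1c against WT with log2(score + 0.1). It was -0.034 with at least 1 pair, 0.048 with at least 10 and -0.028 with all listed pairs in Flt3-ITD against WT. It was -0.13 with at least 10 pairs and 0.080 with canonical genes alone in DM against WT, 0.14 with all listed pairs in DM against Npm1c, and 0.071 and 0.083 with all listed pairs and canonical genes alone in DM against Flt3-ITD. It was 0.21 with log2(score + 0.1) in the interaction. In neutrophils it was 0.060 with at least 1 pair, -0.31 with at least 10, -0.22 with quantile normalization and -0.26 with canonical genes alone.

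At a score threshold of 8 the ratio of mean pairs per bait was 1.09 and the share in all 4 groups 8.12% (8.19% for gene-bearing baits). Chosen after seeing the data, leaving out baits of 20 or more pairs gave 5.68% for that share (7.55% for gene-bearing baits), and leaving out Rps20 gave a ratio of 1.13.

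Leaving out 1 library gave 0 to 1 RP baits in Flt3-ITD against WT (1 without WT replicate 1, beside 7.23% of all baits), 0 to 3 in DM against WT (3 without WT replicate 1, 6.38% against 6.61%), 0 to 2 in DM against Npm1c (2 without Npm1c replicate 2, beside 2.17%) and 0 to 1 in the interaction. RP pairs called were 0 to 0 in the 6 HSPC comparisons and 0 to 2 in neutrophils. The median less all ran from -0.066 to 0.040 in Flt3-ITD, -0.12 to 0.10 in DM against WT, 0.0090 to 0.048 in DM against Flt3-ITD and -0.19 to -0.10 in neutrophils.

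Directions turned without 1 library for Rps20 in Npm1c against WT (0.081 without Npm1c replicate 1, -1.09 without 2), Rps9 in Flt3-ITD against WT (0.10 without WT replicate 1, -0.99 without 2) and Rps6 in DM against Flt3-ITD (0.15 without DM replicate 2, -0.95 without 1). In neutrophils the direction turned with quantile normalization for Rpl36al (-0.46). It turned without neutrophil replicate 2 (-0.053) and without WT replicate 2 (-0.058, against 0.11 without 1). With all pairs in both lists it turned for Rpl29 (0.00091).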
